A study of Mus musculus with 24 samples.

Results

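These data describe how hypothalamic gene expression varied with the carbohydrate share of intake among the 12 *cast/cast* mice, out of 24 mice sequenced. The members were the 12 libraries whose column name carried the colony number of a mouse labelled *cast/cast*, and the share of each mouse was what it ate of a carbohydrate/protein (C/P) diet over 10 d, in kcal, as a percentage of all the kcal it ate. All mice were adult male F2 animals from an intercross begun with a single congenic male and C57BL/6J females. The *cast/cast* mice carried CAST/EiJ alleles on both copies of the Chr 17 subcongenic segment, the other 12 mice were *b6/b6* there, and outside the segment every mouse carried C57BL/6J alleles only. Every mouse chose between the C/P diet and a fat/protein (F/P) diet of equal protein content, whose fat came from either of 2 shortenings. After a period on chow it was offered both diets again for about 2 d, fasted, and the hypothalamus was lifted from the brain by eye. SAGE-Seq, which counts short 3' sequence tags per gene, was run on 1 library per mouse. The mice were picked for sequencing by their intake, the *cast/cast* mice from those eating the most C/P kcal, so the shares do not span what the genotype shows as a whole, and the share was measured weeks before the tissue was taken.

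The hypothalamus holds the neurons that sense energy state and set food intake. In the arcuate nucleus, neurons making AgRP and NPY drive feeding, and neurons making POMC and CART peptides restrain it, both under leptin and insulin. The lateral hypothalamus makes the appetite-raising peptides MCH (*Pmch*) and orexin (*Hcrt*), and the paraventricular nucleus makes oxytocin and vasopressin, which are released in the pituitary and brain and, for oxytocin above all, are known to reduce intake.

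The 12 shares, in order, were 61.0, 63.0, 64.4, 64.6, 66.9, 67.4, 72.0, 72.3, 75.4, 81.0, 86.5 and 99.4% (mean 72.8 ± 11.3 SD, median 69.7%). All lay above those of the *b6/b6* mice, at 27.1 to 39.5%. The mouse with a share of 99.4% ate 0.6 kcal of the F/P diet in 10 d, whereas the mouse with a share of 61.0% ate 49.8 kcal of it. C/P intake covered a narrower span, from 77.8 to 106.6 kcal, so the share followed mainly how much F/P diet a mouse ate (Pearson r = -0.993 with F/P kcal, permutation *P* = 1e-05, the smallest that 100000 permutations can give, and r = 0.892 with C/P kcal, *P* = 0.00069). Among these 12 mice, those with a higher share ate less in total (r = -0.763, *P* = 0.00415, adjusted *P* = 0.0304 over 22 relations, Spearman rho = -0.79, rho *P* = 0.00311), with totals from 104.0 to 133.1 kcal. Total kcal is the denominator of the share, and the mice were picked for high C/P kcal. C/P kcal is the numerator of the share, and F/P kcal is the rest of the total. The relations of the share with total, C/P and F/P kcal are thus partly built in, and their *P* values are no test of how the mice ate. Without the 2 mice farthest from the median share, 86.5 and 99.4%, the relation with total kcal was still r = -0.756, and that with C/P kcal was 0.589 (*P* = 0.0697). Since the share is built from these intakes, a relation of a gene with the share and a relation with total kcal cannot be fully told apart in 12 mice.

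**Figure D1:**
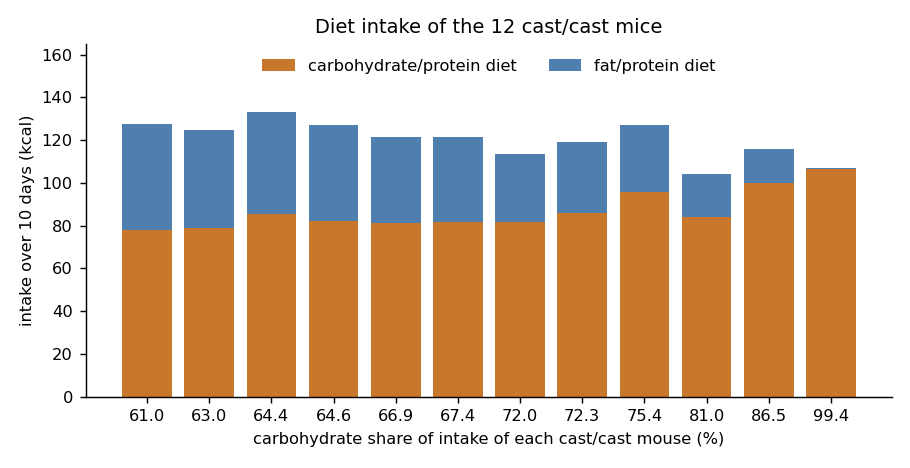
Bars give the kcal eaten over 10 d by each of the 12 *cast/cast* mice (x axis, ordered by carbohydrate share in percent), split into the C/P and F/P diets. The F/P part shrinks from 49.8 kcal at the left to 0.6 kcal at the right, while the C/P part stays between 77.8 and 106.6 kcal.

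Total tag hits were 9237614 to 12078078 per *cast/cast* library and did not follow the share (r = 0.222, *P* = 0.498). The libraries were not alike, however. The first principal component held 46.2% of the variance and set 4 libraries, those of the mice with shares of 67.4, 72.3, 81.0 and 99.4%, apart from the other 8. Of the genes tested, 5435 (39.1%) had an absolute r of at least 0.708 with this component, and the r with the component and the r with the share were themselves correlated at 0.777 across genes, although genes do not count as independent replicates. The component had r = 0.447 with the share (*P* = 0.138), 0.559 without the 2 mice farthest from the median share and 0.293 without the 99.4% mouse. Colony number (r = 0.0834) and study number (r = 0.147) had *P* values of 0.798 and 0.655 with the share. The labels do not say what order or batch, if any, these numbers follow. Of the 33 called genes named here, 5 were also called at *P* of at most 0.01 in the 8 other mice alone (*Ubn2*, *Tmem242*, *Chchd7*, *Atpif1* and *Ndufaf6*), and 12 were called without the 99.4% mouse.

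Of 13911 genes, 228 were correlated with the share at a permutation *P* of at most 0.01 (1.64%), 73 rising (0.525%) and 155 falling (1.11%) as the share rose. With libraries rescaled to the same total, 140 rose and 93 fell, so the balance of the directions depended on the scaling. No gene had a Benjamini-Hochberg adjusted *P* of at most 0.05 (0%), the lowest being 0.209. By the unadjusted permutation *P*, 1365 genes were under 0.05. limma gave 254 genes at *P* of at most 0.01 and also none after adjustment, edgeR gave 191 and none, and DESeq2 gave 468 and 26. All 26 fell with the share, all 26 were among the 228, and in 24 of them the lowest library was that of the mouse with a share of 99.4%.

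Permuting the share itself gave the background for these counts. With an absolute r of at least 0.708 as the threshold, the real share gave 240 genes, 70 positive and 170 negative. Over 100 permutations the count ran from 11 to 4186 with a median of 66, and 13 permutations gave at least as many as the real share (*P* = 0.139). The number of genes correlated with the share was thus within what permuted shares gave, and the genes below are described one by one with that in view. The mouse with a share of 99.4% weighed heavily: it had the lowest value in 113 of the 155 falling genes and the highest in 48 of the 73 rising ones, against 7.11 and 5.84% of all genes. Without it 104 genes were called, and 41 of the 228 were among them. All 228 kept their sign without the 4 libraries that stand apart, and 226 without the 2 mice farthest from the median. As these genes were picked by their r in the same 12 mice, a kept sign says little. Of the 228, 33 were still called without those 4 libraries and 41 without those 2 mice.

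**Figure D2:**
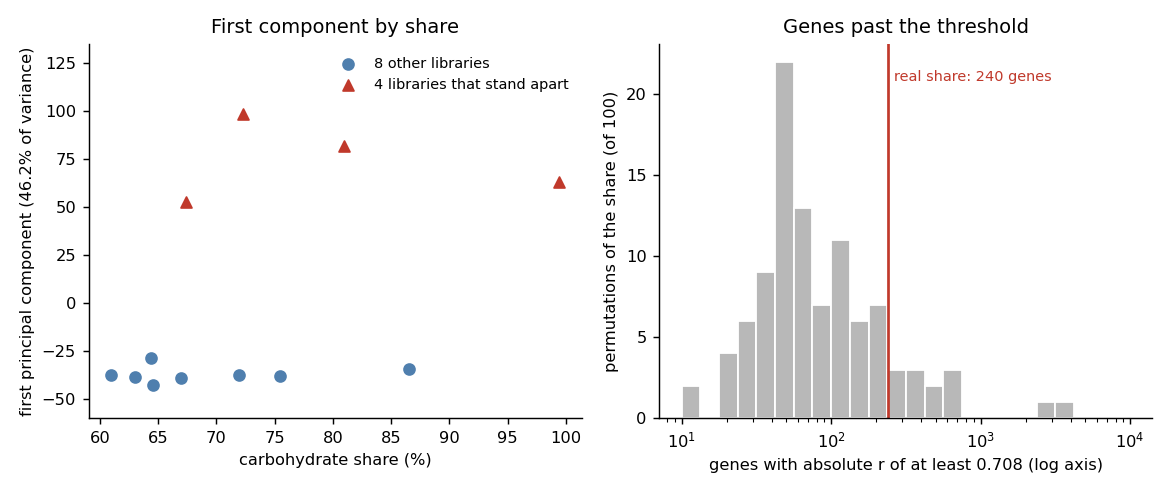
Left, the first principal component of each library against the carbohydrate share (percent), with triangles for the 4 libraries that stand apart, at shares from 67.4 to 99.4%. Right, the number of genes with an absolute r of at least 0.708 in 100 permutations of the share (log axis), with the 240 genes of the real share as a line, reached or passed by 13 permutations.

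Of the appetite-lowering peptides, 23 of the 30 listed were tested, and 3 fell with the share, *Oxt*, *Avp* and *Nms* (13.0%, beside 1.11% of all genes). No member rose. Without the 99.4% mouse, without the 2 mice farthest from the median and with total kcal as a covariate, the number called was 0 in each case. The median r over the list was -0.283, beside 0.0232 over all genes, and -0.207 without the 4 libraries that stand apart. In bulk tissue lifted by eye, fewer cells of a type and less RNA per cell cannot be told apart.

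*Oxt*, which encodes oxytocin (Chr 2, 130576172 to 130576988, GRCm38), ran from 36.4 to 534.3 normalised counts with a median of 264.5. Its level was at most 120.4 in 4 mice, those with shares of 72.0, 72.3, 86.5 and 99.4%, whereas the mice with shares of 75.4 and 81.0% had 459.2 and 256.5, within the range of the mice with low shares. The correlation was r = -0.773 (*P* = 0.00411), rho -0.643 (rho *P* = 0.0285), with a slope of -0.82 ± 0.19 (SE, limma) on the log2 scale per 10 percentage points of share. It rested on the 2 mice farthest from the median: without them r was -0.318 (*P* = 0.37), and without the 99.4% mouse alone -0.573. Without the 4 libraries that stand apart r was -0.661 (exact permutation *P* = 0.0642).

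*Avp*, which encodes vasopressin and lies next to *Oxt* (Chr 2, 130580676 to 130582541), ran from 27.3 to 441.4 normalised counts with a median of 204.0. The 3 lowest libraries, at 27.3 to 95.2, were the mice with shares of 99.4, 72.3 and 81.0%, all among the 4 that stand apart, and the remaining 9 mice had at least 141.0. The correlation was r = -0.771 (*P* = 0.00644), rho -0.825 (rho *P* = 0.00156), with a slope of -0.78 ± 0.18. *Avp* also had r = -0.769 with the first principal component. Without the 99.4% mouse r was -0.54 (*P* = 0.0854). Without the 2 mice farthest from the median r was -0.603 (*P* = 0.0629), and without the 4 libraries -0.67 (exact permutation *P* = 0.0719). *Nms*, neuromedin S, a peptide of the suprachiasmatic nucleus, was low throughout (29.9 to 160.0, median 78.8) and had r = -0.7 (*P* = 0.0094). It had r = -0.531 without the 2 farthest mice (*P* = 0.114). Its lowest 4 mice were those with shares of 72.3, 81.0, 86.5 and 99.4%.

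The 250 bases upstream of the RefSeq start of *Oxt* (GRCm38.p6, chr2:130575919-130576168, plus strand) and *Avp* (chr2:130582589-130582838, minus strand) are shown because both genes fell with the share and share a locus. Capitals mark matches, on either strand, to TGACC (the core that nuclear receptors bind) or CACGTG (an E-box).

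Oxt: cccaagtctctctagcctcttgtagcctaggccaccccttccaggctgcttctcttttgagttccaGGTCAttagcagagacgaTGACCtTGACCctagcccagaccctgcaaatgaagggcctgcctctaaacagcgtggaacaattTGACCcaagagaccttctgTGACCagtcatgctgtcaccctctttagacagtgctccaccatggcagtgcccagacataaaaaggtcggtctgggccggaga

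Avp: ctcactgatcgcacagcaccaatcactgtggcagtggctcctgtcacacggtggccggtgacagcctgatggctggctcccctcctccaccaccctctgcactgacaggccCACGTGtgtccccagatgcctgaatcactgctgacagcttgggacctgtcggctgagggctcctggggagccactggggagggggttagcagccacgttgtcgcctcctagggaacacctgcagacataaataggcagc

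The *Oxt* window held 5 TGACC matches, which begin 184, 166, 160, 102 and 83 bases upstream, and 35.2% of the 32851 mouse promoter windows of the same length held at least 1. The *Avp* window held none of these but 1 CACGTG, 139 bases upstream, which 6.02% of windows held and the *Oxt* window did not. The cAMP response element TGACGTCA (1.55% of windows) and the AP-1 site TGACTCA (4.46%) were in neither. The windows of these neighbouring genes thus share none of the motifs searched.

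The appetite-raising peptides had 11 members tested, 8 with a negative r. Their median r was -0.288, beside -0.283 for the appetite-lowering peptides and -0.266 for the hypothalamic neuron markers. None of the 11 rose or fell at *P* of at most 0.01, which says little in so short a list beside 1.64% of all genes. *Pmch* (MCH) came closest. It ran from 2388 to 15021 normalised counts (median 8178) and had r = -0.669 (*P* = 0.0168), rho -0.741 and a slope of -0.47 ± 0.15. Its lowest 4 mice were those with shares of 72.3, 81.0, 86.5 and 99.4%, the same 4 as for *Nms*. The *P* of *Pmch* by limma, edgeR and DESeq2 was 0.00705, 0.00455 and 0.00103. *Hcrt*, the orexin precursor, ran from 20.2 in the mouse with a share of 72.3% to 4102 in that with 61.0% and had rho -0.776 (rho *P* = 0.00457) but r = -0.379 (*P* = 0.208).

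None of the arcuate peptides was called. *Agrp* ran from 15.1 to 3686 normalised counts (median 1208) and *Npy* from 4.72 to 82.9 (median 41.0). Both were lowest in the mice with shares of 72.3 and 75.4%. In the mouse with a share of 86.5% both were high, *Agrp* at 2943 and *Npy* at 64.1. *Agrp* had r = -0.288 (*P* = 0.343) and *Npy* r = -0.503 (*P* = 0.0886). *Pomc* ran from 320.3 in the mouse with a share of 75.4%, which also had the least *Agrp*, to 4527 in that with 67.4%, with r = -0.103 (*P* = 0.748). *Cartpt* ran from 302.3 to 2048 (median 1187) with r = -0.507 (*P* = 0.0872) and rho -0.776 (rho *P* = 0.00442). Its lowest 3 mice, with shares of 72.3, 81.0 and 99.4%, were among the 4 libraries that stand apart. *Cartpt* had r = -0.782 with the first principal component and -0.404 with the share without them (exact permutation *P* = 0.318). Without the 2 mice farthest from the median, all 4 had a negative r, of -0.768 for *Cartpt* (*P* = 0.0103), -0.673 for *Npy* (*P* = 0.0336), -0.658 for *Pomc* (*P* = 0.0373) and -0.603 for *Agrp* (*P* = 0.0605).

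**Figure D3:**
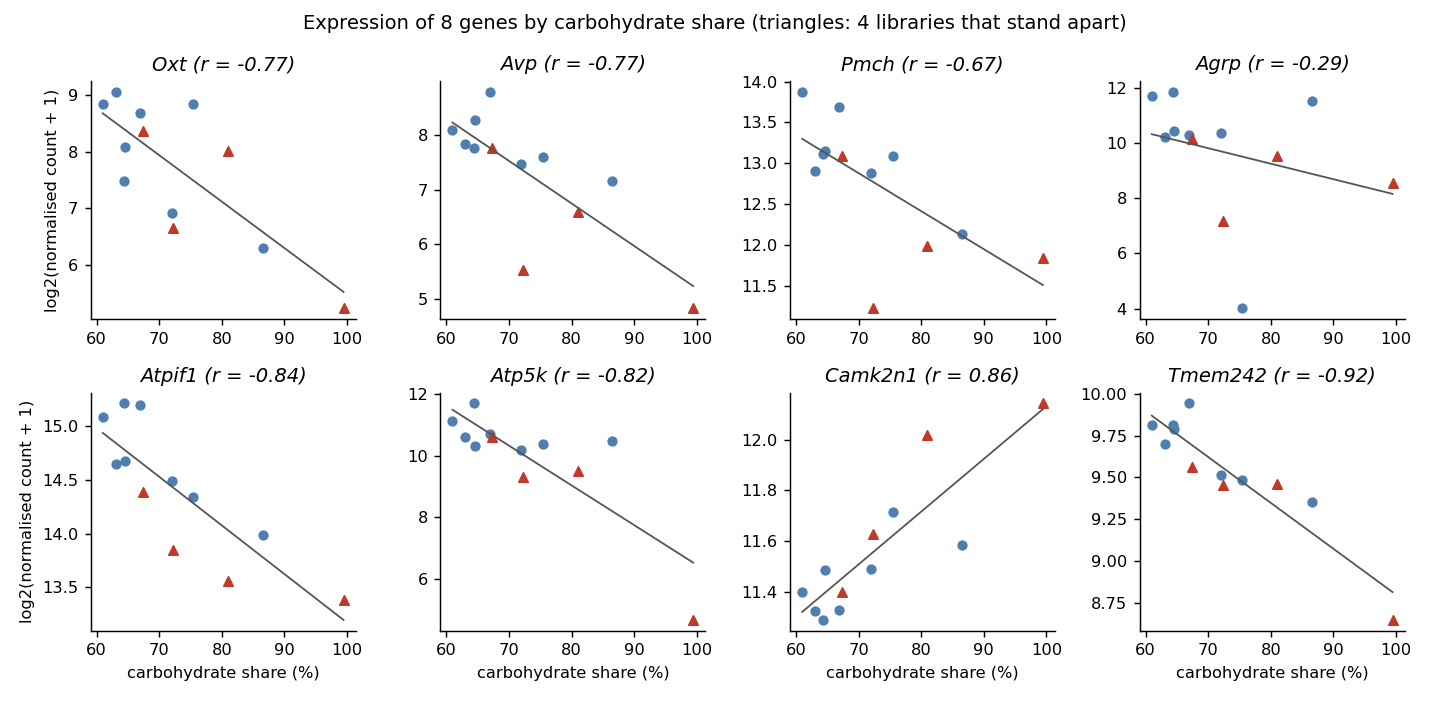
Each panel plots log2(normalised count + 1) of a gene against the carbohydrate share (percent) of the 12 *cast/cast* mice, with a least-squares line and triangles for the 4 libraries that stand apart. *Oxt*, *Avp*, *Atpif1*, *Atp5k* and *Tmem242* fall with the share, *Camk2n1* rises, *Pmch* has r = -0.669 and *Agrp*, with its lowest value of 15.1 at a share of 75.4%, has no clear line.

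Among 40 tested receptors of appetite peptides and hormones 2 fell (5%, beside 1.11% of all genes) and none rose, with a median r of 0.085. *Ramp1*, an accessory protein that lets calcitonin-family receptors bind CGRP, ran from 195.7 to 550.0 normalised counts (median 405.5). It had r = -0.787 (*P* = 0.00215) and a slope of -0.32 ± 0.09. *Ntsr2*, a neurotensin receptor made mainly by astrocytes, ran from 1100 to 4167 (median 2560), with r = -0.757 (*P* = 0.00451). Both were lowest in the 99.4% mouse, and neither was called without it (r = -0.632 for *Ramp1* and -0.565 for *Ntsr2*). In the 8 mice outside the 4 libraries that stand apart, *Ntsr2* had r = -0.595 (exact permutation *P* = 0.127).

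The 2 receptors best known in feeding did not pass the test. *Lepr*, the leptin receptor, was low, at 1.27 to 28.5 normalised counts, its deepest library holding 24 tag hits, which limits the precision (r = -0.027, *P* = 0.924). *Mc4r*, the melanocortin receptor on which AgRP and POMC peptides act, held between 42.9 and 96.5, with r = 0.0157 (*P* = 0.962).

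Of 39 genes of leptin and insulin signalling 1 rose (2.56%, beside 0.525% of all genes) and none fell, with a median r of 0.198. It was *Pik3cb*, a catalytic subunit of phosphoinositide 3-kinase, at 59.2 to 140.1 normalised counts (median 83.7) with r = 0.705 (*P* = 0.00962). Its 3 highest mice, with shares of 72.3, 81.0 and 99.4%, were among the 4 libraries that stand apart, and without those 4 it had r = 0.781 (exact permutation *P* = 0.0219). *Insr*, the insulin receptor, ran from 463.9 to 1279 (median 743.6). It had r = 0.635 (*P* = 0.0228), rho 0.79 (rho *P* = 0.00307), r = 0.86 with the first principal component and, without the 4 libraries, r = 0.822 (exact permutation *P* = 0.00751). Among the other 8 mice it was thus also higher at higher shares. Of 22 genes of dopamine, opioid and endocannabinoid signalling 1 rose (4.55%, beside 0.525% of all genes). It was *Drd5*, a dopamine receptor found at 4.58 to 30.5 normalised counts (r = 0.729, *P* = 0.00635). Its 2 highest mice, with shares of 81.0 and 99.4%, again stand apart. *Drd5* was also sparse, with at most 32 tag hits in a library, and without the 4 libraries had r = 0.54 (exact permutation *P* = 0.16).

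The oxidative phosphorylation genes, which encode the respiratory chain and ATP synthase of mitochondria, had the lowest median r of the lists. Of 83 tested, 73 had a negative r, 6 fell with the share (7.23%, beside 1.11% of all genes) and none rose. Their median r was -0.465, and -0.437 with libraries rescaled to the same total. Complex I subunits had a median of -0.517 over 33 genes, complex I assembly factors of -0.543 over 6, complex IV of -0.439 over 13 and ATP synthase of -0.465 over 17. Genes named for complex II had a median of -0.392 over 6, and those of complex III of -0.28 over 8. Without the 4 libraries that stand apart, the median of the list was -0.47, but its members also followed the first principal component, with a median r of -0.723. Summed over the list, the normalised counts were 562871 in the mouse with a share of 61.0%, the highest, and 311979 in that with 81.0%, the lowest, and the 99.4% mouse had 357223.

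The 6 genes that fell were *Cox4i2*, *Ndufaf6*, *Ndufa11*, *Atp5k*, *Ndufa1* and *Atp5h*, the last pair named only to complete the count. *Cox4i2*, an isoform of a complex IV subunit known to respond to oxygen, ran from 21.8 to 66.4 normalised counts (median 36.3) and had r = -0.805 (*P* = 0.00093). All 6 mice with shares up to 67.4% had more of it than all 6 above. *Ndufaf6*, an assembly factor of complex I, ran from 802.4 to 1687 (median 1273) with r = -0.772 (*P* = 0.00228) and, without the 4 libraries that stand apart, r = -0.953 (exact permutation *P* = 0.000471). *Ndufa11*, a complex I subunit, had r = -0.761 over levels of 82.8 to 406.0, and r = -0.447 without those 4 (exact permutation *P* = 0.271). *Atp5k*, the e subunit of ATP synthase, had a steep slope, -1.29 ± 0.25, but the mouse with a share of 99.4% had 24.6 normalised counts where the other 11 had 635.0 to 3295. Without that mouse it had r = -0.53 (*P* = 0.0945), and without the 4 libraries that stand apart r = -0.446 (exact permutation *P* = 0.264).

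*Atpif1*, which encodes the inhibitor of ATP synthase and is not on that list, fell with r = -0.836 (*P* = 0.00029) and a slope of -0.45 ± 0.10. It was highly expressed, from 10689 to 37887 normalised counts (median 22155). The 5 mice with shares up to 66.9% all had at least 25733, and every mouse above had at most 22935. It kept r = -0.829 without the 4 libraries that stand apart (exact permutation *P* = 0.00796) and r = -0.816 without the 2 mice farthest from the median (*P* = 0.00406).

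Among 57 cytosolic ribosomal protein genes none was called (beside 1.64% of all genes), 44 had a negative r and the median was -0.335. Both lists consist of short transcripts, with median lengths of 1232 and 1094 bases beside 3440 over all genes. The appetite-raising and appetite-lowering peptides had median lengths of 788 and 1319 bases. Among falling genes, *Oxt* had 537 bases, *Avp* 577, *Tmem242* 948, *Atpif1* 1014 and *Chchd7* 2546. Among rising genes, *Akap9* had 13123, *Ubn2* 14644 and *Psip1* 3251. Transcript length moved with r across the transcriptome. Over 12585 genes with a known length, Spearman rho between length and r was 0.338 (0.387 without the 4 libraries). With genes split by length into 3 groups of 4195, the shortest had a median r of -0.169 and the longest of 0.21. The part of transcript length in the results for these lists and for the single genes was not tested. Tags from genes with close copies, as ribosomal and several respiratory chain genes have, may have been split or merged in the deposited counts.

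**Figure D4:**
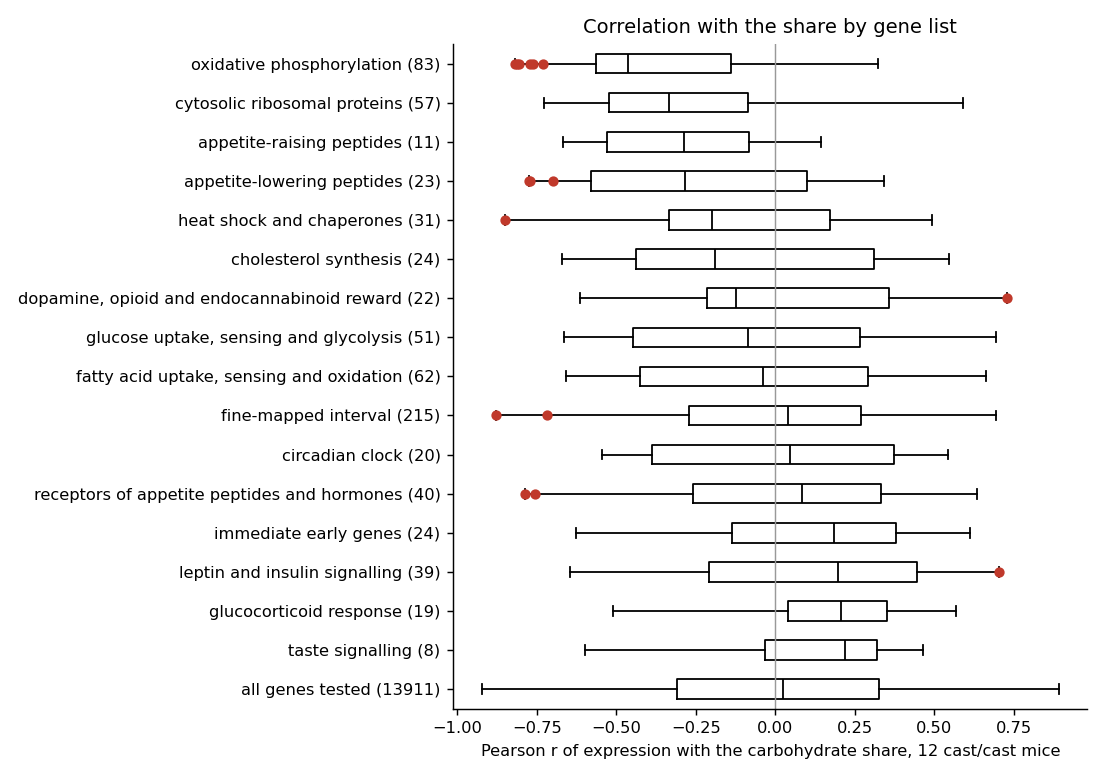
Boxes give the quartiles and median, and whiskers the full range, of Pearson r with the carbohydrate share for the tested members of each list (number in brackets), with dots for members at *P* of at most 0.01. Oxidative phosphorylation lies farthest to the left, with a median of -0.465, beside 0.0232 for all 13911 genes at the bottom.

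The lists of carbohydrate and fat metabolism held no calls. As only 1.64% of all genes were called in either direction, the lack of calls in lists of this size says little about these pathways. None of 51 genes of glucose uptake, sensing and glycolysis (median r -0.0864), of 62 genes of fatty acid uptake, sensing and oxidation (-0.0391) or of 24 genes of cholesterol synthesis (-0.19) was called. *Slc2a1*, the glucose transporter of the blood-brain barrier and glia, ran from 498.5 to 984.2 with r = 0.0302 (*P* = 0.925).

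The lists for glucocorticoid response, neuronal activity, the clock and taste gave no calls either, which again says little beside 1.64% of all genes. These were 19 glucocorticoid response genes (median r 0.207), 24 immediate early genes (0.185), 20 clock genes (0.0476) and 8 taste signalling genes (0.221). *Fkbp5*, which glucocorticoids induce, had r = -0.00707 (*P* = 0.981). *Fos*, a marker of recent neuronal activity, was highest in the 99.4% mouse at 255.8 normalised counts, but the mouse with a share of 86.5% had the lowest level, 53.8, and r was 0.365 (*P* = 0.246). Of 31 heat shock and chaperone genes 1 fell (3.23%, beside 1.11% of all genes), *Creld2*, a protein of the endoplasmic reticulum induced when proteins misfold. It ran from 157.5 to 482.2 (median 275.4), with r = -0.851 (*P* = 0.00024), and the mice with shares of 81.0, 86.5 and 99.4% were the 3 lowest. Without the 4 libraries that stand apart r was -0.66 (exact permutation *P* = 0.101).

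The genes with the lowest *P* among those falling were *Tmem242*, *Chchd7*, *Creld2*, *Atpif1*, *Ppp1r11*, *Calml4*, *Myl12b*, *Tmem53*, *Gins4* and *Ccdc164*. *Tmem242*, an assembly factor of ATP synthase on proximal Chr 17 (5410863 to 5440260), inside the CAST segment as the study bounds it, had the strongest correlation of all, r = -0.923 (*P* = 2e-05, adjusted *P* = 0.209). Its 5 mice with shares up to 66.9% had 828.9 to 982.6 normalised counts, the 6 mice from 67.4 to 86.5% had 651.8 to 754.6 and the 99.4% mouse had 399.6, so that the level stepped down without overlap. The slope was -0.27 ± 0.06 per 10 percentage points. It kept r = -0.775 without the 2 mice farthest from the median (*P* = 0.0094) and -0.855 without the 4 libraries that stand apart (exact permutation *P* = 0.00551).

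*Chchd7*, which encodes a small mitochondrial protein, ran from 25.5 to 116.8 normalised counts with r = -0.908 (*P* = 9e-05). It kept r = -0.904 without the 4 libraries (exact permutation *P* = 0.00427). *Calml4*, a calmodulin-like protein, had r = -0.897 over 27.3 to 169.4, and its lowest library was that of the 99.4% mouse. *Myl12b*, a myosin regulatory light chain, had a slope of -0.70 ± 0.12, yet the 99.4% mouse had 1429 normalised counts where the other mice had 7758 to 17907. Without the 2 mice farthest from the median its r was -0.538 (*P* = 0.111).

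*Tmem53* (77.4 to 389.6, r = -0.88) and *Gins4*, a DNA replication factor (467.8 to 1068, r = -0.824), had r of -0.914 and -0.772 without those 2 mice. Neither was called without the 99.4% mouse alone (r = -0.714, *P* = 0.013, and r = -0.687, *P* = 0.0198) or without the 4 libraries (r = -0.629 and -0.658, exact permutation *P* = 0.0921 and 0.0693). *Ccdc164*, a component of motile cilia, fell with r = -0.883 over levels of 60.1 to 445.6, with its 3 lowest mice at shares of 81.0, 86.5 and 99.4%.

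The 10 genes with the lowest *P* among those rising had slopes of 0.14 to 0.37, and the 10 falling ones slopes of -0.70 to -0.22. *Akap9*, a scaffold for protein kinase A, had r = 0.892 (*P* = 3e-05, adjusted *P* = 0.209), with 253.5 normalised counts in the mouse with a share of 61.0%, 302.5 to 393.7 in the next 10, and 484.2 in the 99.4% mouse. Its slope was 0.18 ± 0.06, a fitted 1.61-fold over the span of shares. *Camk2n1*, an inhibitor of the synaptic kinase CaMKII, ran from 2504 to 4518 with r = 0.861 (*P* = 0.00102). It held without the 2 mice farthest from the median (r = 0.899, *P* = 0.0009). The mice with shares of 81.0 and 99.4% had its highest levels, and without the 4 libraries that stand apart r was 0.708 (exact permutation *P* = 0.0436).

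Of the other 8 rising genes, *Alkbh5*, which removes m6A from RNA, ran from 398.2 to 768.2 (r = 0.801). *Psip1*, a chromatin reader, was at 620.9 to 838.5 in the 7 mice with shares up to 72.0% and at 1130 to 1774 in the 5 above, with no overlap (r = 0.792, slope 0.37 ± 0.09). *Ubn2*, a subunit of a histone chaperone, had r = 0.764 and rho 0.902, and kept r = 0.844 without the 4 libraries (exact permutation *P* = 0.00201). *Ccnl2*, a cyclin of splicing factors, ran from 444.4 to 1199 (r = 0.77) and also followed the first principal component (r = 0.786). *Sgtb*, a co-chaperone, had r = 0.756, *Zfp780b* 0.773, *Fbxl22* 0.758 and *A130049A11Rik* 0.768, with *P* between 0.00209 and 0.00335. Without the 4 libraries, *Fbxl22* had r = 0.618 and *A130049A11Rik* r = 0.585 (exact permutation *P* = 0.107 and 0.116).

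**Figure D5:**
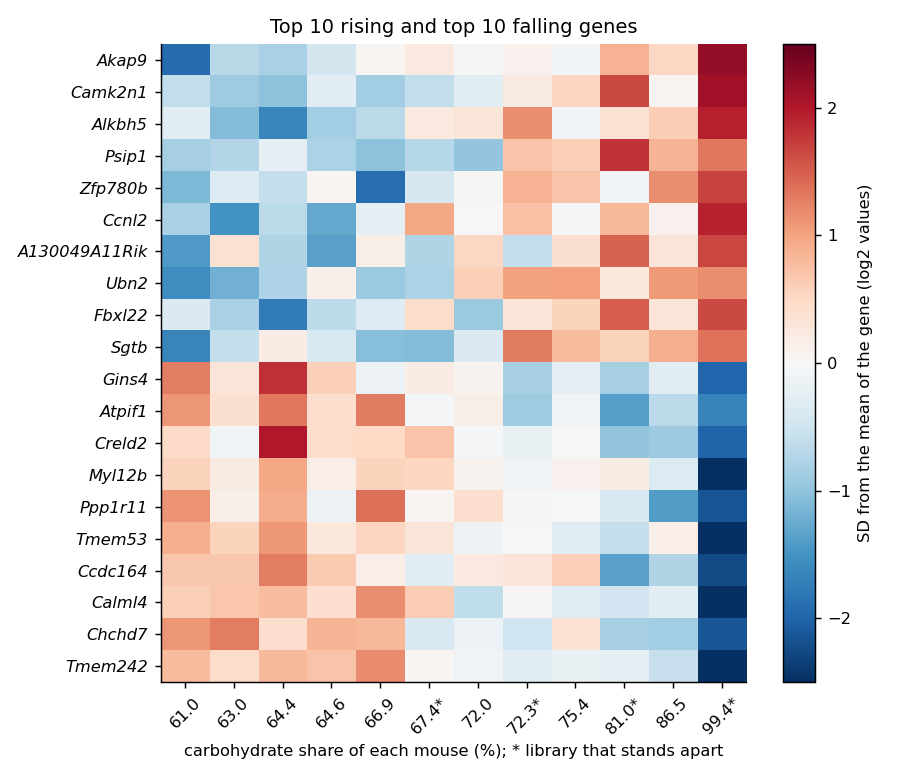
Colour gives the level of each of the 10 rising and 10 falling genes with the lowest *P* in each mouse, in SD from the gene's mean over the 12 mice (log2 values), ordered by carbohydrate share in percent. The 99.4% mouse holds the lowest value of all 10 falling genes, as for *Tmem242* at 399.6 normalised counts, and an asterisk marks the libraries that stand apart.

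Within the fine-mapped interval of Chr 17, 2 of 215 tested genes fell (0.93%, beside 1.11% of all genes). None rose, beside 0.525% of all genes, and the median r was 0.0418. Calls were thus no more frequent in the interval than over all genes. *Ppp1r11*, an inhibitor of protein phosphatase 1 (Chr 17, 36948354 to 36951792), ran from 681.7 to 1359 normalised counts (median 1045). It had r = -0.88 (*P* = 0.00031), with the 2 lowest levels in the mice with shares of 86.5 and 99.4%, and without those 2 r was -0.564 (*P* = 0.0883). *Dhx16*, an RNA helicase of the spliceosome (Chr 17, 35879777 to 35892668), ran from 76.5 to 257.2 with r = -0.719 (*P* = 0.00629), and -0.431 without those 2 mice.

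Genes of the interval that the study discusses were not among the calls. *Itpr3*, the inositol trisphosphate receptor of taste cells, ran from 14.2 to 84.3 normalised counts with r = 0.266 (*P* = 0.412). *Glo1*, which detoxifies methylglyoxal from glycolysis, ran from 1832 to 3276 with r = 0.1 (*P* = 0.751). *Decr2*, of peroxisomal fatty acid oxidation, had r = -0.271 with the share (*P* = 0.402) and r = -0.842 with the first principal component. *Pde9a*, a cyclic GMP phosphodiesterase, had r = 0.544 (*P* = 0.0613) and 0.936 with that component, its 4 highest mice being the 4 that stand apart. *Cdkn1a*, a cell cycle inhibitor that stress induces, had 645.2 in the mouse with a share of 81.0% where the other 11 had 37.4 to 138.3 (r = 0.359, *P* = 0.226). *Pla2g7*, *Zfp811*, *Morc2b*, *Zfp870*, *Mut* and *Rcan2* had *P* between 0.163 and 0.881. *Pla2g7*, at 0.953 to 10.4 normalised counts, had at most 12 tag hits in a library and *Morc2b* at most 31. Such low counts limit what their r can show.

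The dissected tissue carried the markers of hypothalamus, with *Avp*, *Oxt*, *Pmch*, *Hcrt*, *Agrp* and *Pomc* all present, and 25 of 27 hypothalamic neuron markers tested. Markers of neighbouring tissue were present too. Summed choroid plexus markers were 609.0 to 2224 normalised counts, being 1280 or more in the 4 libraries that stand apart and 1081 or less in the other 8, although 10 of the 20 listed, among them *Otx2*, were not among the genes tested. Their sum had r = 0.47 with the share (*P* = 0.125). Summed pituitary markers ran from 1824 to 4895 and had r = 0.266. Only 8 of the 16 listed were tested, and *Prl*, *Lhb*, *Tshb* and *Pou1f1* were not among them, which limits this sum as a sign of pituitary tissue.

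The summed level of 22 oligodendrocyte and myelin markers ran from 22127 to 49662 normalised counts, with r = -0.627 (*P* = 0.0278, adjusted *P* = 0.153), rho -0.734 (rho *P* = 0.00823, adjusted 0.0362) and r = -0.669 without the 2 mice farthest from the median. The adjustment, over 22 relations, includes the intakes that the share is built from. Their low *P* is partly built in and lowers the adjusted values of the marker sums, and no adjustment without them was made. None of the 22 markers was called alone. Of these markers 16 had a negative and 6 a positive r, with a median of -0.155, and of -0.15 without the 4 libraries that stand apart. The sum without those 4 libraries had r = -0.896 (exact permutation *P* = 0.00156). The summed tanycyte and ependymal markers, 15 tested of 20, ran from 3137 to 5981 with r = -0.5 (*P* = 0.115), rho -0.748 (rho *P* = 0.00716, adjusted 0.0362) and r = -0.786 without the 2 farthest mice (*P* = 0.00555). Of these 15.0, 10.0 had a negative and 5.0 a positive r, with a median of -0.318, and of -0.00205 without the 4 libraries. The 1 called (6.67%, beside 1.11% of all genes) was *Ccdc153*, a gene of motile cilia. It fell with r = -0.738 (*P* = 0.00533) over 107.9 to 376.0 normalised counts and had r = -0.782 with the first principal component. It was not called without the 99.4% mouse (*P* = 0.0259). Summed astrocyte (r = -0.00585), microglia (-0.279), blood (-0.492), endothelial (-0.0648), thalamus (-0.396), striatum and cortex (-0.245) and hypothalamic neuron markers (-0.391) had *P* between 0.101 and 0.986. How far the makeup of the dissected tissue enters the relations of *Oxt*, *Avp* and the other genes with the share was not tested.

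With total kcal added to the model (limma), 49 genes were called, and 15 of the 228 were among them. The slope of *Oxt* was then -0.88 (*P* = 0.0111), of *Avp* -0.67 (*P* = 0.0353), of *Tmem242* -0.28 (*P* = 0.0158), of *Myl12b* -0.78 (*P* = 0.00142), of *Atpif1* -0.28 (*P* = 0.0741) and of *Ramp1* -0.15 (*P* = 0.262). With the first principal component in its place, 201 genes were called and 82 of the 228 were among them. *Oxt* then had a slope of -0.78 (*P* = 0.00225), *Avp* of -0.54 (*P* = 0.00193), *Tmem242* of -0.25 (*P* = 0.000574) and *Chchd7* of -0.42 (*P* = 0.000178), whereas *Pik3cb* had 0.15 (*P* = 0.0834) and *Pmch* -0.29 (*P* = 0.0323).

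Slopes on the share were then compared with those of the 12 *b6/b6* mice, whose shares span only 27.1 to 39.5% and so give less precise slopes. The difference had a limma *P* of at most 0.01 in 722 of 13998 genes (5.16%). After adjustment 0 genes were left at 0.05 (0%), with 2331 at an unadjusted *P* under 0.05. edgeR gave 886 genes and also 0 after adjustment. *Oxt* fell with the share in *cast/cast* mice and had a slope of -2.03 ± 0.63 in *b6/b6* mice, a difference of 1.21 ± 0.66 (*P* = 0.0784). The slope of *Avp* was -0.37 ± 0.70 in *b6/b6* mice, a difference of -0.41 ± 0.74 (*P* = 0.58). For *Tmem242* it was -0.21 ± 0.21 (difference -0.06 ± 0.22, *P* = 0.774).

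Some called genes had slopes of opposite sign in the 2 genotypes. *Atpif1* had 1.07 ± 0.42 in *b6/b6* mice, a difference of -1.52 ± 0.44 (*P* = 0.00186). *Pik3cb* had -1.67 ± 0.39 there, a difference of 1.91 ± 0.41 (*P* = 9.03e-05). *Gins4* had 0.69 ± 0.24, a difference of -0.91 ± 0.25 (*P* = 0.00131). None of these differences held after adjustment over all genes, where the lowest adjusted *P* was 0.151. With the first principal component of the 24 libraries as a covariate, 274 genes had an adjusted *P* of at most 0.05 (lowest 0.0447), so this count depended on that setting.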

How the data were processed

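Hypothalamus SAGE-Seq libraries of 24 mice were deposited, of which the 12 *cast/cast* libraries were analysed and the 12 *b6/b6* libraries used only to compare slopes. The signal values the authors deposited are tag hits per gene divided by the DESeq size factor of each library, after alignment with a modified version of the SOLiD SAGE software to RefSeq mRNA and GRCm38/mm10. Per the study's methods, RNA was checked for integrity before library construction. The table also holds the authors' own comparison of genotypes (fold changes and *P* values), which was not used. Its 19529 rows gave 13998 genes, repeated rows of a gene being used once, and 0 columns of samples were left unused. Multiplying each library by its size factor, recovered from the step between its values, gave whole tag hits for 100% of values (within 0.1), which served as input for edgeR and DESeq2, which called 191 and 468 genes.

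Genes with a mean normalised count of at least 5 in the 12 mice were kept (13911). The share was correlated with log2(normalised count + 1) by Pearson r, with two-sided *P* from 100000 permutations of the share (seed 1), called at 0.01, and Benjamini-Hochberg adjustment over all genes. Slopes and standard errors came from limma (lmFit, eBayes with trend), as did the difference of slopes, fitted on all 24 mice. With the 8 libraries left after leaving out 4, permutation was exact. Each library is from a separate mouse. No molecular identifiers are described. The alternatives are listed with their effect in the closing section, and those that leave out or adjust for the libraries standing apart were chosen after seeing the data. The members and gene lists were chosen with earlier results of these data known. Genes named were the 10 rising and 10 falling with the lowest *P* (mean of at least 20, sign kept without the 2 mice farthest from the median share), any gene at an adjusted *P* of at most 0.05 (there were 0), up to 4 called members of each list, up to 5 called genes of the fine-mapped interval of Chr 17 as the study bounds it, and 24 genes of appetite, metabolism and the interval regardless of *P*, of which 1 is not reported here. Promoter sequences are from RefSeq (GRCm38.p6, both genes matched) and transcript lengths from GENCODE. The tests were tried on simulated data. Software was Python 3.11.15, numpy 2.4.6, pandas 2.3.3, scipy 1.17.1, matplotlib 3.10.9, R 4.3.3, limma 3.58.1, edgeR 4.0.16 and DESeq2 1.42.0.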

Additional observations from a re-analysis of the deposited data

How the results depend on the processing

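The counts of genes called at *P* of at most 0.01 (73 rising, 155 falling) moved by more than 1.5 times under several alternatives. Rescaled libraries gave 140 and 93, Spearman rho 312 and 426, DESeq2 126 and 342 (26 after adjustment), total kcal as a covariate 10 and 39, C/P kcal in place of the share 21 and 50, and leaving out the mouse with a share of 99.4% gave 28 and 76. With the first principal component as a covariate 40 rose. For oxidative phosphorylation, 6 falling genes became 22 with Spearman rho, 16 with DESeq2, 10 with study number as a covariate, 3 without the 99.4% mouse, and 1 with total kcal as a covariate or with C/P kcal. For appetite-lowering peptides, 3 became 5 with Spearman rho, limma or DESeq2, 6 with study number, 1 without the 4 libraries that stand apart, and 0 with total kcal, with C/P kcal, without the 99.4% mouse and without the 2 mice farthest from the median. The cause of these shifts was not tested.

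The share had r = 0.589 with C/P kcal without the 2 farthest mice and r = -0.625 with total kcal without the 4 libraries, neither past 0.05, while summed tanycyte and ependymal (r = -0.786) and microglia markers (r = -0.65) passed it without the 2 farthest mice. The difference of slopes between genotypes gave 1564 genes, 274 after adjustment, with the first principal component of the 24 libraries as a covariate, and 644 and 0 without the 99.4% mouse. Of the 33 called genes named, none changed sign under the 17 alternatives, which says little for genes picked by r in the same mice. Of their 560 values, 393 stayed called, and no gene was called under every alternative. No paired analysis was possible because each library is from a separate mouse and the labels pair no mice. Depth limits the precision of sparse genes such as *Lepr* and *Drd5*, with at most 24 and 32 tag hits.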
